A study of Mus musculus with 9 samples.

Results

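Regulators of G protein signalling (RGS) were followed in CD8+ T cells of 9 mice through 8 members of the family: Rgs1, Rgs2, Rgs3, Rgs10, Rgs14, Rgs16, Rgs18 and Rgs19. Each member was taken as the probe set that names it, that of highest mean where there were several, and each of the 8 had 1 such probe set. They are 8 of the 30702 genes tested. The members were chosen with earlier results of these data known: Rgs2 was selected on its fall in the combination relative to anti-CD27, and the question asked of the others was whether that fall was shared. Its differences between groups are therefore given as a description with no test.

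The cells were pmel1 CD8+ T cells, which carry a transgenic receptor for a gp100 peptide of pigment cells and melanoma, and they bore the Thy1.1 marker. Per the series' design text, these were transferred to naive congenic recipients, the same number to each, and all 9 mice received 100 µg of human gp100 peptide intravenously with 400 µg of antibody in total. The combination mice (n = 3) received 200 µg of the agonist antibody AT124 to CD27, 100 µg of the antibody RMP1-14 to PD-1 and 100 µg of the antibody 10F.9G2 to PD-L1. The anti-CD27 mice (n = 3) received 200 µg of AT124 and 200 µg of isotype control antibody. The anti-PD-1/L1 mice (n = 3) received 100 µg of each of RMP1-14 and 10F.9G2 and 200 µg of isotype control antibody. No mice with peptide and isotype control alone are among the samples used here, so no level can be called raised or lowered by peptide alone. On day 4 CD8+ cells were enriched from the spleen of each mouse by magnetic depletion of other cells, and those with Thy1.1 were purified by flow cytometry. RNA of each mouse went to 1 whole-transcript array. The ages and sexes of the mice are not given in the sources used here.

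An RGS protein binds the active alpha subunit of a heterotrimeric G protein and speeds the hydrolysis of its GTP, which ends the signal of the receptor above it. In lymphocytes the receptors concerned include those for chemokines, which act mainly through inhibitory G proteins of the Gi class. The R4 subfamily (here Rgs1, Rgs2, Rgs3, Rgs16 and Rgs18) consists mostly of small proteins with little beyond the RGS domain, the R12 subfamily includes Rgs10 and Rgs14, and Rgs19 belongs to the RZ subfamily. RGS proteins are controlled in large part through their abundance, and several R4 genes are known as transcripts that change quickly when lymphocytes are activated.

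In the reference annotation, Rgs2, Rgs13, Rgs1, Rgs21 and Rgs18 were 5 neighbouring protein-coding genes on mouse chromosome 1, and Rgs16 lay beside Rgs8 elsewhere on chromosome 1. Rgs3 is on chromosome 4, Rgs10 on chromosome 7, Rgs14 on chromosome 13 and Rgs19 on chromosome 2. The 250 bases before the transcription start are shown for Rgs2, Rgs10 and Rgs16, which are the members with a single RefSeq window. Rgs3 had 2 windows, Rgs19 had 3, and Rgs1, Rgs14 and Rgs18 had 0. The combination arrays of Rgs2, Rgs10 and Rgs16 all lay below their anti-CD27 arrays, as did those of Rgs1 and Rgs14. The Rgs10 window lies before a start inside the annotated span of the gene, while those of Rgs2 and Rgs16 lie directly outside it. Each is read from the strand of the gene, with matches to 3 motifs in capitals.
Rgs2, GRCm38.p6 chr1:144004150-144004399, minus strand: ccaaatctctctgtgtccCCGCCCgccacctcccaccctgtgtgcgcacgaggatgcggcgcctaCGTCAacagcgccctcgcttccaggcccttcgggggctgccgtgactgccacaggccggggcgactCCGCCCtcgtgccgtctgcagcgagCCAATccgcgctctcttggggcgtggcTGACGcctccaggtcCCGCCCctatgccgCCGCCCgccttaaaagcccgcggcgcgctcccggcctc
Rgs10, GRCm38.p6 chr7:128418173-128418422, minus strand: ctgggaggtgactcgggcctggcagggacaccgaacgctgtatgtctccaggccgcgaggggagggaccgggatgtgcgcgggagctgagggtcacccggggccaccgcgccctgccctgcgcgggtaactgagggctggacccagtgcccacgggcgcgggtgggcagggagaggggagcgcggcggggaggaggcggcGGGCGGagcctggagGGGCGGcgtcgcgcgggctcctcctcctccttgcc
Rgs16, GRCm38.p6 chr1:153740103-153740352, plus strand: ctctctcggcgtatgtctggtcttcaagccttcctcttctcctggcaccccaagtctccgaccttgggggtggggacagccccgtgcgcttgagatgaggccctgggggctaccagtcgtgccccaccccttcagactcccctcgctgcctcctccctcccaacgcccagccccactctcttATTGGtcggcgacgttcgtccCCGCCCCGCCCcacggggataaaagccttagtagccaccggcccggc
The motifs searched on both strands were the CRE core TGACG, which cyclic AMP-responsive factors can bind, the AP-1 site TGANTCA, the NFAT core GGAAA, the TATA box TATAAA, the CCAAT box CCAAT and the GC box GGGCGG. The Rgs2 window held 2 CRE cores, whose first bases lay 185 and 67 bases before the start, 1 CCAAT box and 4 GC boxes. The Rgs10 window held 2 GC boxes, and the Rgs16 window held 1 CCAAT box and 2 GC boxes that overlap each other. No window of the 3 held the letters of the AP-1, NFAT or TATA motifs. Of 32851 RefSeq windows of the same length, 17.8% held a CRE core, 33.8% a CCAAT box, 32.7% a GC box, 55.6% an NFAT core, 12.4% a TATA box and 6.75% an AP-1 site. The GC content was 72.4% for Rgs2, 76.4% for Rgs10 and 66.4% for Rgs16. These matches describe letters, and no binding was measured here.

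The 3 anti-PD-1/L1 arrays stood apart from the other 6 in their background, positive, ERCC, and bacterial and phage controls, though not in their negative controls. Bacterial and phage controls averaged 8.60 on the combination arrays, 8.60 on the anti-CD27 arrays and 9.75 on the anti-PD-1/L1 arrays (log2). ERCC controls averaged 2.84, 2.83 and 3.58. Background controls averaged 3.25 ± 0.04 on the combination arrays, 3.27 ± 0.06 on the anti-CD27 arrays and 4.06 ± 0.08 on the anti-PD-1/L1 arrays (log2, SD, n = 3 each), and positive controls averaged 6.81, 6.70 and 5.75. An exact permutation test of each of these controls against anti-PD-1/L1 gave a p of 0.1, below which 3 against 3 cannot go. The quality weights that limma estimated per array were 0.24 to 0.50 for anti-PD-1/L1 and 0.96 to 2.25 for the other arrays. The 5222 negative control probe sets averaged 2.78 for the combination, 2.92 for anti-CD27 and 2.77 for anti-PD-1/L1, so that in these the anti-CD27 arrays were the highest, and the combination minus anti-CD27 (-0.14) also had an exact permutation p of 0.1. All 8 measured CD8 T cell markers were above the background controls on all 9 arrays, and their mean was 9.83 for the combination, 9.94 for anti-CD27 and 8.88 for anti-PD-1/L1. Of other cells, 4 of 6 measured B cell markers, 3 of 6 platelet markers and 0 of 8 myeloid markers were above the background controls on all arrays. So was 1 of 5 NK cell markers, Nkg7. Cd4, Ms4a1 (B cells), Ppbp (platelets), 5 myeloid markers, Ncr1, Klra9 and Fcer1g (NK cells) and Alas2 (erythroid cells) were above them on none. The combination against anti-CD27 comes first, because the background and positive controls of those arrays lay closer together. Against a stricter floor, the 95th percentile of the negative controls, Rgs19 was above on all 9 arrays and Rgs16 and Rgs18 on none. In the combination, anti-CD27 and anti-PD-1/L1, Rgs1 was above it on 2, 3 and 0 arrays, Rgs2 on 0, 3 and 0, Rgs3 on 3, 0 and 0, Rgs10 on 0, 1 and 3, and Rgs14 on 0, 0 and 1. A fold with a group under that floor is the ratio of the deposited values, and how far the floor sets it was not tested. The 3 comparisons share arrays and are not independent of each other.

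Rgs2, which acts on alpha subunits of the Gq class and is needed for full proliferation of mouse T cells, had log2 levels of 4.70, 4.86 and 4.56 on the combination arrays, 6.10, 6.06 and 5.88 on the anti-CD27 arrays, and 4.78, 4.91 and 4.48 on the anti-PD-1/L1 arrays. The combination and anti-PD-1/L1 arrays overlapped, and all 3 anti-CD27 arrays lay above both. The mean in the combination was 4.71 ± 0.15 (SD, n = 3), against 6.01 ± 0.12 in anti-CD27. That is a log2 difference of -1.31 ± 0.12 (SE), or 2.48-fold lower, with the combination arrays under the 95th percentile of the negative controls, and it was the sixth lowest of all genes (rank 6 of 30702). The choice of Rgs2 rests on this value. Leaving out any 1 array or changing the scaling moved it between -1.38 and -1.19.

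Of the 7 other members, 1 was lower in the combination than in anti-CD27 at an adjusted p under 0.05 (limma, Benjamini-Hochberg over all genes), 0 were higher and 6 did not pass. Over all genes 0.528% were called lower and 1.28% higher, which is 162 and 392 genes, against 217 and 332 after quantile normalization and 277 and 395 with the positive controls as a covariate. The 4 members Rgs1, Rgs10, Rgs14 and Rgs16 had 3 combination arrays that all lay below the 3 anti-CD27 arrays, against 8.46% of all genes in that direction, and none had the opposite pattern, which 12.1% of all genes had. The median difference of the 7 was -0.11, and that of all genes was -0.003. The point estimates of Rgs1, Rgs10 and Rgs16 lay between -0.56 and -0.54, and those of Rgs3, Rgs14 and Rgs19 between -0.11 and 0.01. That these falls are smaller than that of Rgs2 is largely set by the choice of Rgs2 for its fall, and is no result about the others. Rgs18 was below background in both groups.

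**Figure D1:**
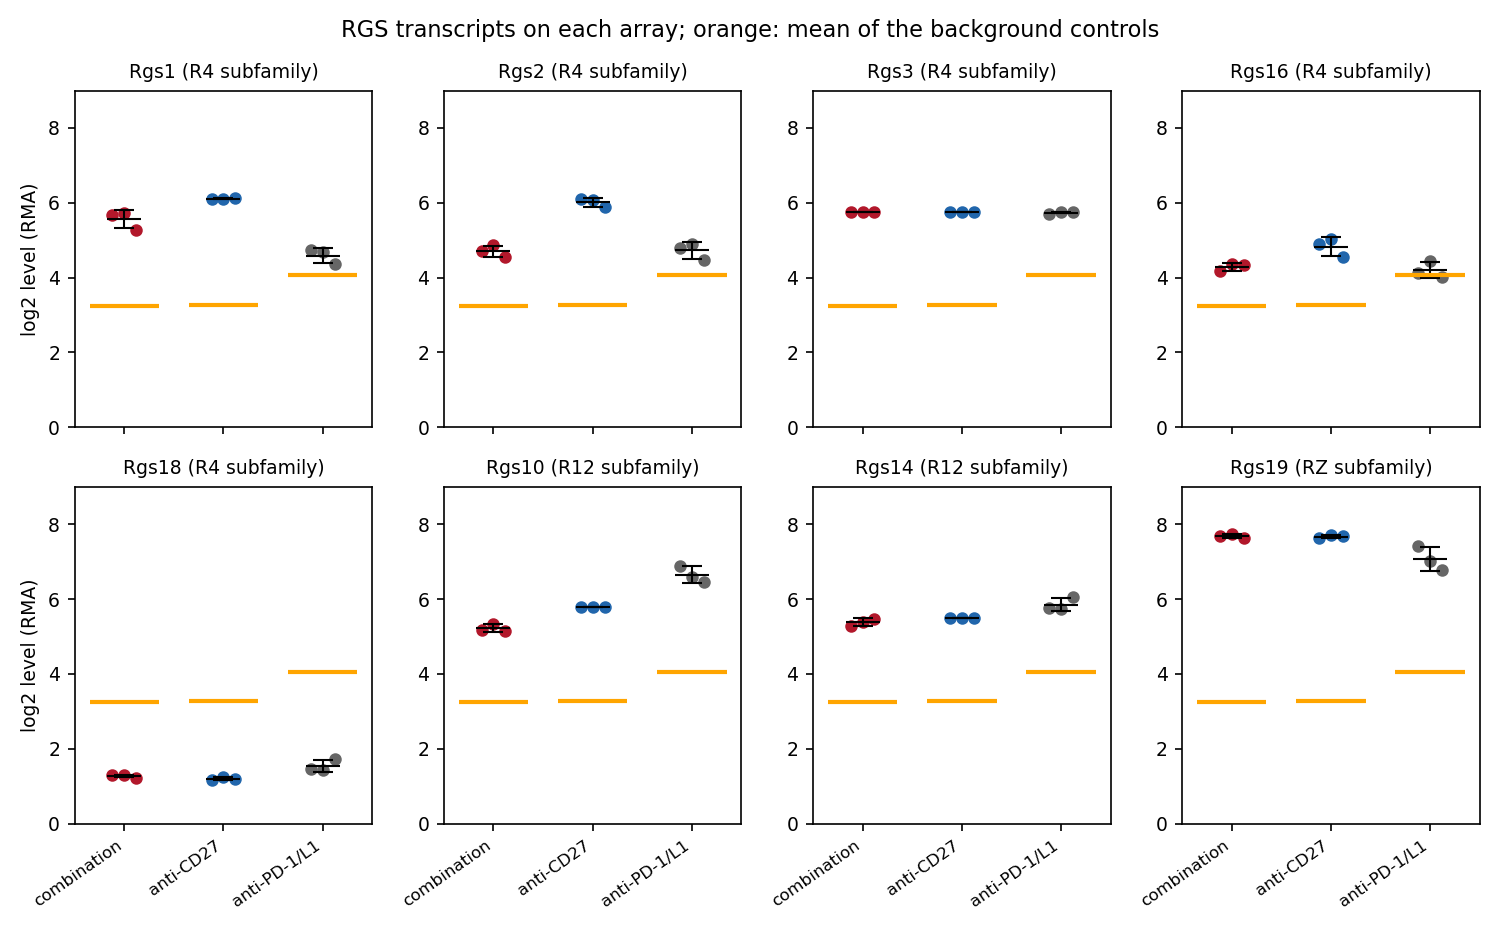
Log2 level (RMA) of each RGS member on every array, 1 point per mouse, with the mean and SD of each group of 3 (black) and the mean of the background controls of that group (orange). The 3 anti-CD27 arrays of Rgs2, between 5.88 and 6.10, lie above all other arrays of that gene, and Rgs18 lies below the background controls in every group.

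Rgs1, which restrains the response of lymphocytes to chemokines, had log2 levels of 5.67, 5.72 and 5.27 in the combination, 6.10, 6.10 and 6.13 in anti-CD27, and 4.73, 4.68 and 4.36 in anti-PD-1/L1. No group overlapped another, and the order was anti-CD27, then the combination, then anti-PD-1/L1. The combination minus anti-CD27 was -0.56 ± 0.13 (SE), which did not pass (limma, adjusted p = 0.0906). Across the alternatives this adjusted p ran from 0.0105, with arrays weighted by quality, to 0.293. Rgs1 passed in 2 of these 18 alternatives.

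Rgs16, a further inhibitor of Gi and Gq signals that is known to limit chemokine-driven migration of mouse T cells, stood at 4.16, 4.36 and 4.34 in the combination, 4.90, 5.04 and 4.54 in anti-CD27, and 4.13, 4.45 and 4.02 in anti-PD-1/L1. As for Rgs2, the anti-CD27 arrays lay above the rest and the other groups overlapped. The combination minus anti-CD27 was -0.54 ± 0.15 (SE), which did not pass (limma, adjusted p = 0.147, from 0.0356 with array weights to 0.477 over the alternatives). On 1 of the 3 anti-PD-1/L1 arrays Rgs16 was not above the background controls.

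Rgs3, which acts on Gi and Gq subunits and also has long isoforms, was at 5.74 on 8 of the 9 arrays and at 5.71 on anti-PD-1/L1 array 1. The 8 values were identical as deposited, so the SD was 0 in the combination and in anti-CD27, and the difference between them was 0 (limma, adjusted p = 1). A value shared by at least 8 arrays occurred in 0.508% of all genes. The origin of these shared values was not tested, and a difference of 0 here is no measure of how alike the groups were.

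Rgs18, known mainly from platelets and megakaryocytes, was at 1.29, 1.28 and 1.23 in the combination, 1.17, 1.23 and 1.19 in anti-CD27, and 1.45, 1.42 and 1.72 in anti-PD-1/L1. All 9 values lay below the background controls of their arrays, so no fold is given, and its fitted differences describe values below background. Its combination and anti-CD27 arrays overlapped (limma, adjusted p = 1).

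Rgs10, an R12 member that acts on Gi subunits, was the 1 of these 7 that passed. Its log2 levels were 5.19, 5.33 and 5.14 in the combination, 5.78 on each of the 3 anti-CD27 arrays, and 6.90, 6.60 and 6.46 in anti-PD-1/L1. No group overlapped another, and the order was anti-PD-1/L1, then anti-CD27, then the combination, which differs from that of Rgs2. The combination minus anti-CD27 was -0.56 ± 0.11 (SE), or 1.47-fold lower (limma, adjusted p = 0.0399). This call rests on all 6 arrays compared: without any 1 of them the adjusted p lay between 0.0848 and 0.165, and without anti-PD-1/L1 array 2 it was 0.0649. It was also lost with median centring (0.0585) and with the replicate number as a block (0.0684), and over all alternatives the adjusted p ran from 0.000959 to 0.165. In a fit of the 6 arrays alone it was 0.00915.

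Rgs14, the R12 member that also carries a GoLoco motif for inactive Gi subunits, was at 5.29, 5.40 and 5.48 in the combination, 5.50 on all 3 anti-CD27 arrays, and 5.77, 5.75 and 6.05 in anti-PD-1/L1. The anti-CD27 values were identical as deposited, as were those of 8.56% of all genes in that group. The combination minus anti-CD27 was -0.11 ± 0.09 (SE) and did not pass (limma, adjusted p = 0.946), although the arrays did not overlap. In a fit of the 6 arrays alone its SE was 0.05 (limma, adjusted p = 0.373). Rgs19, an RZ member that acts on Gi and Gz subunits, was at 7.69, 7.73 and 7.63 in the combination and 7.63, 7.71 and 7.67 in anti-CD27. These groups overlapped and their difference was 0.01 ± 0.14 (SE; limma, adjusted p = 1), with an interval of -0.30 to 0.32 at 95%. That interval also carries the spread of the anti-PD-1/L1 arrays, whose SD was 0.32, against 0.05 in the combination and 0.04 in anti-CD27. In a fit of the 6 arrays alone the SE was 0.04 (limma, adjusted p = 0.928).

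Platelets are a known source of Rgs10 and Rgs18, and B cells of Rgs1, so the markers of these cells are given beside them. The mean of 6 measured platelet markers was 3.90 to 4.07 on the combination arrays, 3.97 to 4.10 on the anti-CD27 arrays and 4.33 to 4.44 on the anti-PD-1/L1 arrays. Pf4, Itga2b and Gp9 were above the background controls on all 9 arrays and Ppbp on none. The mean of 6 measured B cell markers was 3.71 to 3.74 for the combination, 3.76 to 3.78 for anti-CD27 and 4.13 to 4.18 for anti-PD-1/L1, with Cd79b, Cd22, Blk and Pax5 above the background controls on all arrays and Ms4a1 on none. The median of all genes was also higher on the anti-PD-1/L1 arrays, at 3.97, against 3.59 for the combination and 3.61 for anti-CD27. In the combination and anti-CD27 that median itself lay above the background controls (3.25 and 3.27), so being above them is a low bar. The part of other cells in these results was not tested. In sorted samples as in any bulk RNA, fewer cells with a transcript and less of it per cell cannot be told apart.

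**Figure D2:**
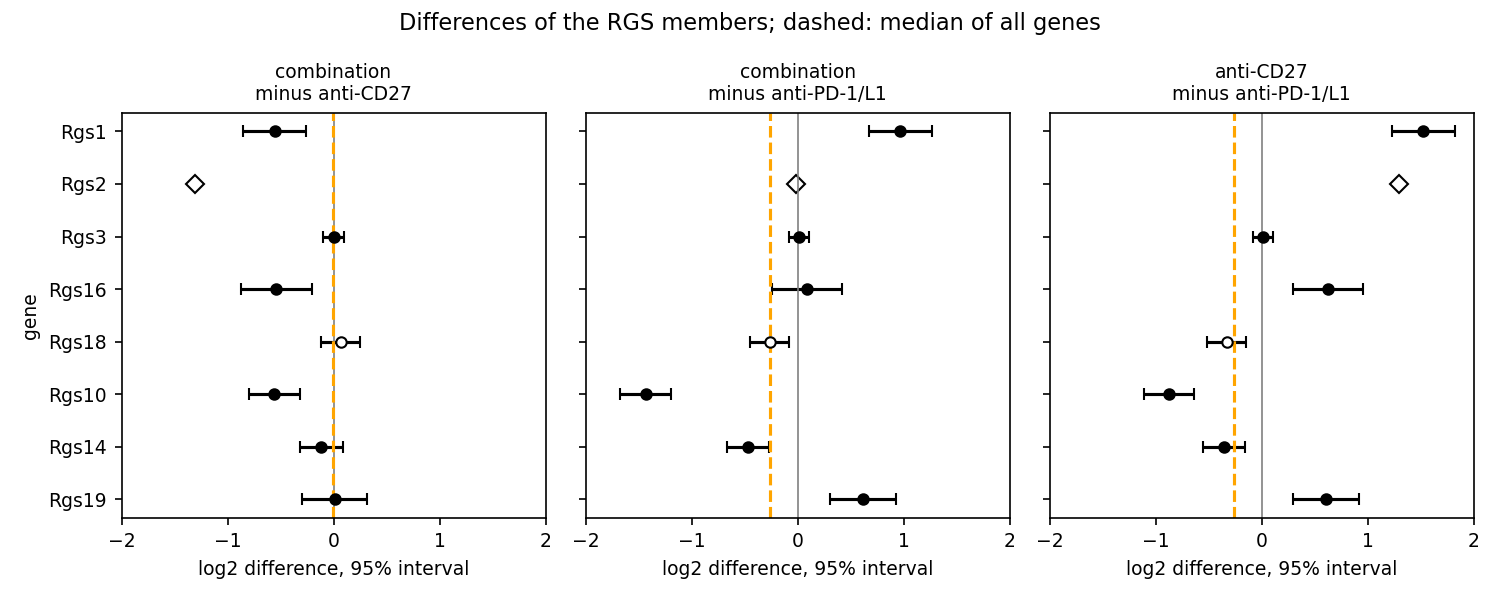
Log2 difference of each RGS member with limma's 95% interval in the 3 comparisons, with 0 as a grey line, the median of all genes as a dashed line, and Rgs18, which is below background in all groups, as an open point. Rgs2 is a diamond with no interval, since it was chosen for its fall. In the combination minus anti-CD27, Rgs2 is at -1.31, Rgs1, Rgs10 and Rgs16 lie between -0.56 and -0.54, and Rgs3, Rgs14 and Rgs19 lie between -0.11 and 0.01.

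The comparison of the combination with anti-PD-1/L1 asks what the CD27 agonist added to blockade of PD-1 and PD-L1. Rgs2 had a mean of 4.71 in the combination and 4.72 ± 0.22 in anti-PD-1/L1 (SD, n = 3), a difference of -0.02 ± 0.12 (SE), given with no test because it uses the combination arrays on which Rgs2 was chosen. Rgs10 was lower in the combination by a log2 difference of -1.43 ± 0.11 (SE), or 2.70-fold (limma, adjusted p = 8.31e-06). Rgs1 was higher, with a difference of 0.97 ± 0.13 (SE), or 1.96-fold (limma, adjusted p = 0.000208). Rgs19 was at 7.68 ± 0.05 in the combination and 7.07 ± 0.32 in anti-PD-1/L1, where its arrays read 7.41, 7.02 and 6.77, and was called higher (limma, adjusted p = 0.0032).

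By the values as deposited, 3 of the 7 members other than Rgs2 were lower in the combination than in anti-PD-1/L1 (Rgs10, Rgs14 and Rgs18), 2 were higher (Rgs1 and Rgs19) and 2 did not pass (Rgs3 and Rgs16). Rgs14 differed by -0.47 ± 0.09 (SE; limma, adjusted p = 0.00132), and Rgs18, below background in both groups, had an adjusted p of 0.0155 (limma). Over all genes 53.3% were called lower and 19.0% higher, so the members' counts stand beside a background in which most genes were called. The same 3 and 2 members had arrays that did not overlap, beside 54.6% and 18.9% of all genes. The median of all genes in this comparison was -0.26.

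Between the single treatments, the comparison of anti-CD27 with anti-PD-1/L1 gave 3 of the 7 other members lower, 3 higher and 1 that did not pass, by the values as deposited. Over all genes 53.7% were called lower and 17.1% higher, and for arrays that did not overlap the shares were 55.1% and 17.5%. Rgs2 was higher in anti-CD27, with a difference of 1.29 ± 0.12 (SE), or 2.45-fold, which is given with no test because it uses the anti-CD27 arrays on which Rgs2 was chosen. Rgs1 was higher by 1.52 ± 0.13 (SE), or 2.88-fold (limma, adjusted p = 2.17e-05), with its anti-PD-1/L1 arrays under the 95th percentile of the negative controls. Rgs16 was higher by 0.63 ± 0.15 (SE; limma, adjusted p = 0.00458). Rgs19 was also higher (0.61 ± 0.14, SE; limma, adjusted p = 0.00366), a call that reversed with the positive controls as a covariate. Rgs10 was lower, with a difference of -0.87 ± 0.11 (SE), or 1.83-fold (limma, adjusted p = 0.000119). Rgs14 was lower by a difference of -0.35 ± 0.09 (SE; limma, adjusted p = 0.00627), Rgs18 had an adjusted p of 0.00546 with both groups below background, and Rgs3 did not pass (limma, adjusted p = 0.832).

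Because the anti-PD-1/L1 arrays differed in their controls, the members were also compared under other scalings. In anti-CD27 minus anti-PD-1/L1, Rgs2 was at 1.29 as deposited, 1.32 after quantile normalization and 1.66 after centring each array on its median. Rgs1, Rgs16 and Rgs19 were likewise called higher, and Rgs10 lower, under these 3 scalings. Rgs3 ran from -0.28 to 0.38 over the alternatives (limma, lowest adjusted p = 0.000182). With the mean of the positive controls as a covariate, which differs between the groups itself, Rgs2 was at 0.64 ± 0.51 (SE), and Rgs1 and Rgs16 did not pass. Rgs10 was at -2.02 there and passed (limma, adjusted p = 0.00741), and Rgs19 was called in the opposite direction, lower at -0.95 (limma, adjusted p = 0.0496). In the combination minus anti-PD-1/L1, Rgs10 was at -1.43, -1.77 and -1.05 and Rgs1 at 0.97, 1.04 and 1.35. Rgs2 there was at -0.02, 0.13 and 0.36. Rgs3 took either sign, at -0.32 after quantile normalization and 0.39 after centring. Its lowest adjusted p over the alternatives was 0.000129 (limma). Rgs16, at 0.09 as deposited, was at 0.47 after centring. It passed as higher in 2 of the 18 alternatives (limma, lowest adjusted p = 0.0175). Of all 8 members, 2 were higher and 3 lower after quantile normalization, and 5 and 1 after centring. These 8 include Rgs2, for which a call is no test. Rgs14 was lower by the deposited and the quantile normalized values, and after centring it differed by -0.09 and did not pass (limma, adjusted p = 0.372). Rgs19 was higher as deposited and after centring, and at 0.12 after quantile normalization it did not pass (limma, adjusted p = 0.267). With the covariate Rgs10 stayed lower at -2.71 (limma, adjusted p = 0.0077), and Rgs19 was called in the opposite direction, lower at -1.11 (limma, adjusted p = 0.0482). Rgs1 was at -0.17 and did not pass (limma, adjusted p = 0.881), and Rgs2 was at -0.74. The median of all genes in the combination minus anti-PD-1/L1 was -0.26 as deposited, -0.03 after quantile normalization and 0.12 after centring. The split of all genes between higher and lower calls moved with it, at 19.0% and 53.3% as deposited, 24.0% and 27.9% after quantile normalization, 40.1% and 17.4% after centring, and 2.92% and 3.34% with the covariate. Between the single treatments the higher and lower shares were 17.1% and 53.7% as deposited, 23.3% and 27.0% after quantile normalization, 37.9% and 16.8% after centring, and 3.54% and 4.35% with the covariate.

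**Figure D3:**
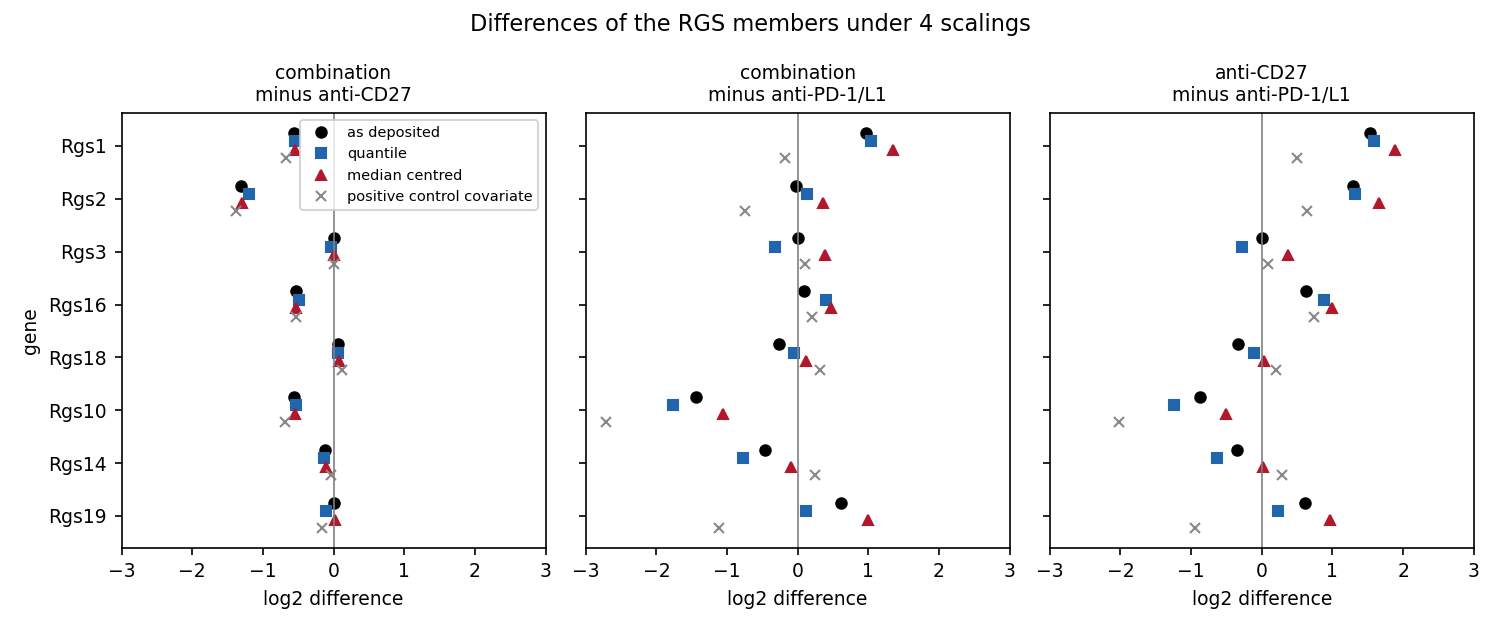
Log2 difference of each RGS member in the 3 comparisons under 4 treatments of the deposited values: as deposited, quantile normalized, centred on each array's median, and with the mean of the positive controls as a covariate. Differences of the combination from anti-CD27 lie close together for each gene, such as Rgs2 between -1.38 and -1.19, while those from anti-PD-1/L1 spread widely, as for Rgs19 between -1.11 and 1.00 in the combination.

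The rest of the pathway was described through 6 lists of other RGS genes, G protein subunits, receptor kinases and other regulators, receptors and effectors, of which 85 of 92 genes were measured. In the combination against anti-CD27, 2 were higher, 3 lower and 80 did not pass. That is 2.35% higher and 3.53% lower, beside 1.28% and 0.528% of all genes, and the lists were chosen with earlier results known. Among the 13 other RGS genes 0 were called by limma, with 1 at an unadjusted p under 0.05, and their median difference was 0.03. The largest was that of Rgs21, which lay below the background controls on all arrays. Only 2 of these 13 genes were above the background controls on all 9 arrays. Of the 13 alpha subunits 0 were called by limma (1 at an unadjusted p under 0.05), the largest difference being 0.32 for Gna15, a Gq class subunit of blood cells (adjusted p = 0.449). The 13 measured beta and gamma subunits likewise had 0 calls (1 unadjusted), with Gng3 named by the rule at 0.32 (limma, adjusted p = 0.376), although it was above the background controls on 4 of 9 arrays. The 10 measured receptor kinases, arrestins and other alpha subunit regulators had 0 calls (2 unadjusted), with Gpsm2, a GoLoco protein, the largest at 0.34 (limma, adjusted p = 0.781).

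Among the receptors, Ccr2, a receptor for inflammatory monocyte-attracting chemokines, was at 5.16 ± 0.06 in the combination and 3.12 ± 0.05 in anti-CD27 (log2, SD, n = 3), the second of these below the background controls (limma, adjusted p = 2.35e-06). Ccr4, a receptor for the chemokines CCL17 and CCL22, was at 2.22 ± 0.24 in the combination, below the background controls, and at 3.40 ± 0.31 in anti-CD27, close to them (limma, adjusted p = 0.0126). Cxcr5, the receptor that directs cells to B cell follicles, was higher in the combination by 0.49 ± 0.10 (SE; limma, adjusted p = 0.0493). The other 15 of 18 measured receptors did not pass. Of the 18 measured effectors, Plcb2, a phospholipase C that beta and gamma subunits activate, differed by -0.41 ± 0.08 (SE; limma, adjusted p = 0.041) and Pde4b, which degrades cyclic AMP, by -0.40 ± 0.06 (SE; limma, adjusted p = 0.0159). The median difference was 0.06 for the receptors and -0.07 for the effectors. With 1 array left out, the adjusted p reached 0.0681 for Ccr4, 0.213 for Cxcr5, 0.0891 for Pde4b and 0.162 for Plcb2, and the highest for Ccr2 was 9.18e-05. Over all alternatives the call was lost in 10 of 18 for Cxcr5, 9 of 18 for Plcb2, 5 of 18 for Pde4b and 4 of 17 for Ccr4. The 95th percentile of the negative controls averaged 5.61 in the combination and 5.83 in anti-CD27. In both groups the means of Ccr2, Ccr4, Cxcr5 and Pde4b lay under it, and those of Plcb2 above it.

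**Figure D4:**
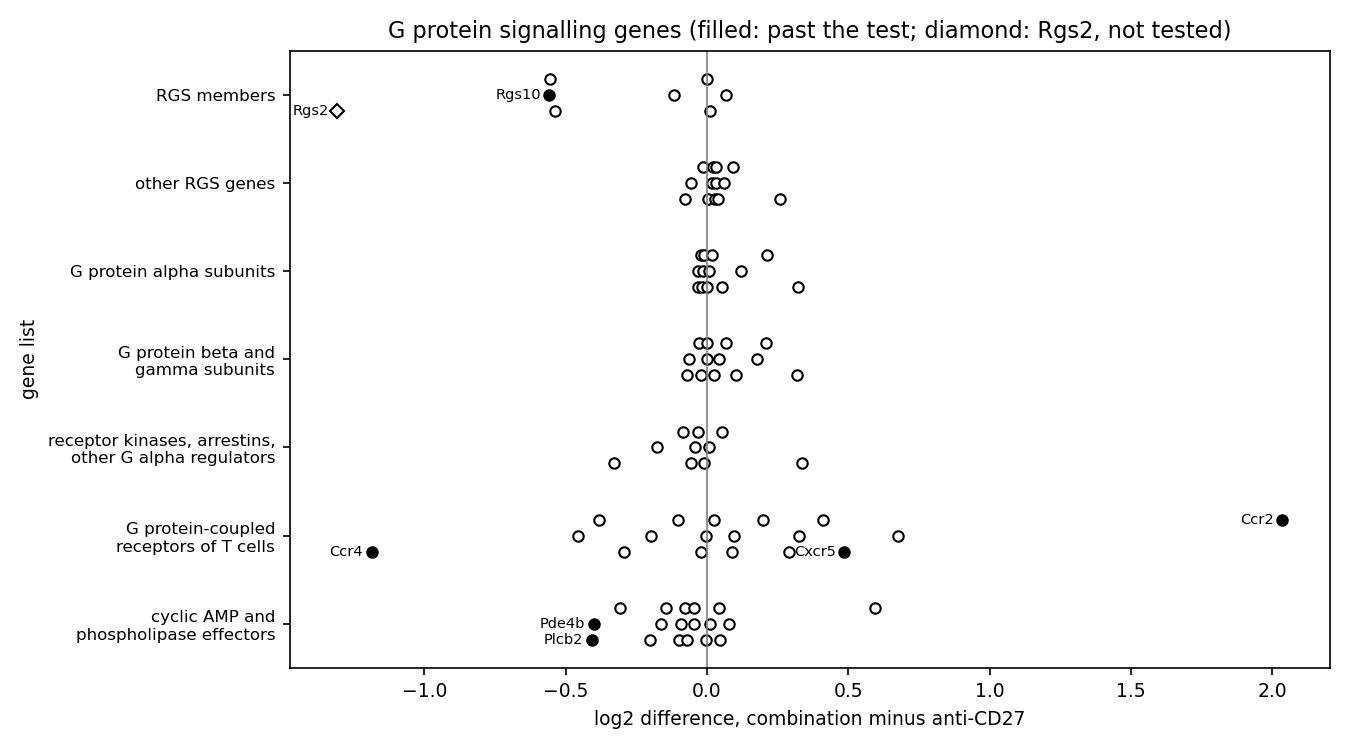
Log2 difference of the combination minus anti-CD27 for each measured gene of the RGS members and the 6 pathway lists, 1 point per gene, filled where the adjusted p was under 0.05, with Rgs2 as a diamond because it was not tested. Rgs2 is at -1.31; Ccr4 (combination) and Ccr2 (anti-CD27) were below the background controls in the group named, so the sizes of their differences are not measured.

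Against anti-PD-1/L1 most of the pathway genes were called, as were most genes of the array. In the combination 28 of the 85 were higher, 40 lower and 17 did not pass, and in anti-CD27 26 were higher, 44 lower and 15 did not pass. Gnai2, the main Gi alpha subunit of lymphocytes, was at 10.53 ± 0.01 for the combination, 10.41 ± 0.02 for anti-CD27 and 8.59 ± 0.34 for anti-PD-1/L1 (log2, SD, n = 3). Its differences from anti-PD-1/L1 were 1.93 ± 0.14 in the combination (SE; limma, adjusted p = 7.94e-06) and 1.81 ± 0.14 in anti-CD27 (adjusted p = 1.28e-05). Over all genes 53.3% were called lower and 19.0% higher in the combination, and 53.7% and 17.1% in anti-CD27. Only 2 of the 13 other RGS genes were above the background controls on all 9 arrays. Of these 13, 11 were lower in the combination and 13 in anti-CD27 as deposited. After quantile normalization 3 and 2 of them were lower and 0 higher, after centring 2 were lower in each and 3 higher in the combination, and with the covariate 0 were called by limma, with 2 in each at an unadjusted p under 0.05. Rgs11, an R7 member, was at -0.78 and -0.72 as deposited and at -0.40 and -0.36 after centring. Grk6, a kinase that phosphorylates activated receptors, was higher in both, at 0.80 and 0.86. Gnb1, a beta subunit, was also higher in both, at 1.36 and 1.15. In the combination the effector Pde3b was higher by 1.30. The receptor Gpr65, above the background controls on 7 of 9 arrays, was higher there by 1.90. In anti-CD27 the effector Adcy7 was higher by 1.52, and the receptor Cxcr6 was lower, at -1.99. Over the 6 lists the split in the combination was 32 higher and 22 lower after quantile normalization, 48 and 11 after centring, and 1 and 3 with the covariate. With the covariate Gnai2 was at 0.11 (limma, adjusted p = 0.833), and Rgs11 and Grk6 did not pass either. In anti-CD27 against anti-PD-1/L1, Adcy7 passed in 18 of 18 alternatives (limma, highest adjusted p = 0.0269). Cxcr6 passed there in 17 of 18 (limma, highest adjusted p = 0.0571).

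The genes whose levels over the 9 arrays were most like those of Rgs2 were found among 7213 genes with a mean log2 level of at least 5, by Pearson's r as a description. The highest r was 0.97 for Mgrn1, an E3 ubiquitin ligase, and for Btbd11, St6gal1, which adds sialic acid to glycans, and Il6ra, the receptor chain for interleukin-6, followed by 0.96 for Nrn1, which encodes neuritin. The lowest r was -0.98 for Ctla2a and Ctla2b, which encode cysteine protease inhibitors, followed by Rras2 (-0.97), Dapk2 and Memo1 (-0.96 each). Il6ra was at 6.16 for the combination, 7.47 for anti-CD27 and 5.83 for anti-PD-1/L1, and Ctla2a at 8.27, 6.06 and 8.33. The 9 points share their groups, and for the 5 genes of highest r the mean was highest in anti-CD27.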

How the data were processed

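RNA of transferred pmel1 CD8+ T cells was measured on 9 arrays, 1 per mouse. The deposited values are log2 levels per probe set. The submitters' processing notes name RMA, a method of background correction, normalization and probe summary, and the package oligo 1.38.0. The build of the array's probe sets is not given in the sources used here. Of 65956 transcript probe sets, 31258 named 1 gene. Symbols were updated through RefSeq, and the probe set with the highest mean was kept for 441 genes with several, leaving 30702 genes, with no filter on low values. Promoter sequences are RefSeq's (GRCm38.p6), and windows were matched by symbol.

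limma 3.58.1 in R 4.3.3 was fitted to all 9 arrays with 1 mean per group (two-sided moderated test, Benjamini-Hochberg over 30702 genes). The spread was pooled over all groups, so each SE and p of a comparison also carries that of the group left out of it. The test was checked on simulated data. The number of arrays limits the precision. The members and the lists were chosen with earlier results of these data known. Named genes were all members, up to 4 called members of each pathway list by size of difference (no more than 1 where anti-PD-1/L1 was compared, a limit set after the values were seen), or the member with the largest difference where none was called, and the 5 genes most and least like Rgs2, leaving out predicted genes, small RNAs, olfactory receptors and antigen receptor segments. Alternatives were quantile normalization, median centring, the 6 arrays compared, a filter on the lower 50% of genes, means over probe sets, a replicate block, array weights, a trended robust prior, the positive controls as a covariate and leaving out each array.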

Additional observations from a re-analysis of the deposited data

How the results depend on the processing

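Over the alternatives, 127 of 143 member differences between the combination and anti-CD27 were counted as unchanged. So were 125 of 143 between the combination and anti-PD-1/L1 and 131 of 143 between anti-CD27 and anti-PD-1/L1. Unchanged means the same direction and side of the threshold. For Rgs2 in the first comparison, which makes 18 of the 127, it means the same direction and a move under its SD within groups. Rgs3, at 0 there, had no direction to keep and was counted as unchanged. Rgs18 fell under the filter on the lower 50% of genes, and its values below are fitted differences under background. Adding the positive control covariate removed most calls against anti-PD-1/L1. The cause of the changes below was not tested, except that fewer arrays or genes enter some fits.

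In the combination against anti-CD27, the count of members past the threshold was 2, of which 1 is Rgs2, whose place in it was fixed by its choice, and 1 is Rgs10. It was 1 with median centring, 1 with the replicate block, 4 with array weights and 1 to 2 without 1 array. With the positive control covariate it was 3, all lower, beside 0.902% of all genes called lower there. The 554 genes called became 1653 with only the 6 arrays compared, 2517 with array weights and 174 to 1226 without 1 array. Rgs19, at 0.011, was at -0.11 with quantile normalization and -0.16 with the positive control covariate, and without 1 array it ran from -0.014 to 0.037.

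In the combination against anti-PD-1/L1, 5 members and 22207 genes were called, against 2 members and 1921 genes with the positive control covariate, and 11892 genes with the filter. Rgs2, at -0.02, turned to 0.13 with quantile normalization, 0.36 with median centring, and without 1 array it ran from -0.14 to 0.075. Rgs3 turned to -0.32 with quantile normalization, Rgs18 to 0.11 with centring, and Rgs16 ran from -0.0011 to 0.21 without 1 array. With the positive control covariate Rgs1 turned to -0.17, Rgs14 to 0.25, Rgs18 to 0.32, Rgs19 to -1.11 (called lower), Gnb1 to -0.53, Gpr65 to -0.62 and Pde3b to -0.14.

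In anti-CD27 against anti-PD-1/L1, 7 members and 21737 genes were called, against 2 members and 2422 genes with the covariate, and 11432 genes with the filter. That count includes Rgs2, whose call is no test because it uses the anti-CD27 arrays on which Rgs2 was chosen. Of the 7 members other than Rgs2, 3 were lower and 3 higher, beside 53.7% and 17.1% of all genes. Rgs3 turned to -0.28 with quantile normalization, and Rgs14 to 0.013 and Rgs18 to 0.035 with centring. With the covariate Rgs14 turned to 0.29, Rgs18 to 0.19, Rgs19 to -0.95 (called lower) and Gnb1 to -0.55.

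The labels do not say that replicate numbers mark a pairing, and same-numbered arrays had correlations of their deviations between -0.196 and 0.161, so the numbers were not taken to pair the samples. With the number as a block, 377 genes were called in the combination against anti-CD27 and the adjusted p of Rgs10 was 0.0684 (limma).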

Other observations

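Among the members themselves, levels over the 9 arrays correlated as follows, as a description over arrays that share groups and scaling. Rgs2 and Rgs16, both R4 members on chromosome 1, had the highest r (0.91). With the R4 members of its own run of genes, Rgs2 had 0.77 (Rgs1) and -0.62 (Rgs18), and with the R4 member Rgs3 it had 0.21. Rgs2 and Rgs10 had -0.09. Rgs14 and Rgs19 had the lowest, -0.92.

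Values shared exactly between arrays were common in the deposited table: 64.7% of genes had the same value on at least 2 of the 9 arrays. On all 3 arrays of a group, 5.49% of genes had 1 value for the combination, 8.56% for anti-CD27 and 0.713% for anti-PD-1/L1. Rgs3 and Rgs14 were among such genes in anti-CD27, and their SD of 0 there is a property of these values. How such values arose was not tested.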
